A study of Rattus norvegicus with 10 samples.

Results

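Acp5 and Slc4a2, the genes of an acid phosphatase and an anion exchanger of the osteoclast, were measured in the tibial shafts of rats after a session of mechanical loading. They are 2 of the 4803 accessions on the array, spotted as NM_019144 (Acp5) and NM_017048 (Slc4a2), and both were among the 4707 that passed the filter on missing values. They were chosen by their known role in osteoclasts, with their ratios and levels on these arrays already known, so their values are given as a description and without a test.

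The study asked which genes of cortical bone respond to bending. Female Wistar rats of 12 weeks were used, and each of 10 oligonucleotide arrays with a Cy3 and a Cy5 channel compared the treated right tibia of 1 rat with its own contra lateral control, both taken 6 h after the session. In the LOAD group (n = 5 rats) the right tibia was bent in a 4-point bending device for 300 cycles at 2 Hz with a peak setting of 60 N, which also squeezes the leg. In the SHAM group (n = 5 rats) the right tibia was squeezed without bending. Both groups were treated under isoflurane and nitrous oxide anesthesia and killed with CO2, and the rats carried no transgene according to the labels. The contra lateral tibia belonged to an animal that had been anesthetized and treated on the other side, so it was not the bone of an untreated rat. The shafts were freed of their ends, periosteum and marrow, and RNA was taken from whole bone, so fewer osteoclasts and less RNA per osteoclast cannot be told apart.

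Osteoclasts resorb bone by sealing off a patch of its surface and acidifying the space beneath them. Protons for this come from carbonic acid and are pumped out by the vacuolar proton pump, and the bicarbonate left behind in the cell leaves through the anion exchanger AE2, the product of Slc4a2. Matrix freed of mineral is then digested by enzymes such as cathepsin K, while the tartrate-resistant acid phosphatase TRAP, the product of Acp5, is stored in and secreted by the same cells and is the classical stain for them. Acp5 is also expressed by some macrophages, and Slc4a2 by many cell types that regulate their pH.

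The promoters of the genes are shown because the results turn on how far the genes varied together, and they differ in base composition. In the rat genome build GRCr8 of RefSeq, Slc4a2 lies on chromosome 4 from 11628860 to 11646961 and Acp5 on chromosome 8 from 28939984 to 28946639. Windows of 300 bases, from 250 bases before to 50 bases after an annotated start, were taken from RefSeq. There were 2 for Acp5, from starts 2001 bases apart, at chr8:28945881-28946180 (window 1) and chr8:28943880-28944179 (window 2), and 1 for Slc4a2 at chr4:11645353-11645652, all on the minus strand. They are written 5′ to 3′ along the gene, and capitals mark each CG dinucleotide and, in window 2 of Acp5, the letters TCACATGA, which is the form of the M-box bound by MITF, a transcription factor of osteoclasts.
Acp5 promoter window 1: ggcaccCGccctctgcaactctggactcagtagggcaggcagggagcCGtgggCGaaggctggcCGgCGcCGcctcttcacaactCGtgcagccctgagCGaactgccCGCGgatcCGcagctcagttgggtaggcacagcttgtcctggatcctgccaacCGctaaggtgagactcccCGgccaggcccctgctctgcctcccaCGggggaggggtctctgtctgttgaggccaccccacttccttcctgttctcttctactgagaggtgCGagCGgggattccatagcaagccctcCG
Acp5 promoter window 2: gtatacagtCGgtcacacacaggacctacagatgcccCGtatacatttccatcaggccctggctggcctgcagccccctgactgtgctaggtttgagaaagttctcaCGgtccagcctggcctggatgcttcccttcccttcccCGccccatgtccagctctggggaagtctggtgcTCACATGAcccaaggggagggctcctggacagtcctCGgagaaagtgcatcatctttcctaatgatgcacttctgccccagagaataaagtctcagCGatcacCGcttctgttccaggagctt
Slc4a2 promoter: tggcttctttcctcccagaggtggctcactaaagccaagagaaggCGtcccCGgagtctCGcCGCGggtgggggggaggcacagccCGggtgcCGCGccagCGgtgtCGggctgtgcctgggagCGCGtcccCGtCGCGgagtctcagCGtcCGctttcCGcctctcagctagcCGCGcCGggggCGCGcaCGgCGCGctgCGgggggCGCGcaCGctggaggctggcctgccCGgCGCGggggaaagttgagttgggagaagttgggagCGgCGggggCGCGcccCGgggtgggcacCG
The Slc4a2 window held 39 CG dinucleotides at a GC content of 75%, more CG than 96.2% of the 33469 promoter windows in the table, whose median was 7. Window 1 of Acp5 held 17 at 65.7% GC and window 2 held 7 at 56.3% GC. The letters TCACATGA, searched on both strands (TCATGTGA on the other), occurred once, in window 2 of Acp5, starting 73 bases before the start site, at position 178 of the window, and are present in 1.16% of all windows. They did not occur in the other windows. The GC box GGGCGG, searched on both strands and present in 33.1% of all windows, occurred once in each Acp5 window and not in that of Slc4a2, while TGANTCA, an AP-1 type site (7.33% of all windows), and TATAAA, searched on both strands (14.2%), were found in none of the 3. These matches are letters in a window and not measured binding. The position of the spotted oligonucleotides in the transcripts was not used here.

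The spots of both genes gave signal well above background. The paper states that part of an oligonucleotide on these slides can bind another gene. A spot with signal may thus not measure its named gene alone, which was not tested here. The probability of signal given by the scanner software reached 0.5 in 20 of 20 channels for both genes, with a spot confidence from 0.59 to 0.94 for Acp5 and from 0.51 to 0.90 for Slc4a2. Over all spots, 52.4% to 81.6% carried signal in both channels of an array. The labels of SHAM 1 disagree, since 1 field gives LOAD, but its title, its description and the file header give SHAM, which was followed. The ratios of LOAD 2 correlated over all genes at -0.31 with those of LOAD 5 and at -0.33 with those of SHAM 2, arrays with the same dye orientation. The dyes of LOAD 2 are stated in the labels and its direction was kept, and the differences with LOAD 2 turned and with SHAM 1 moved are given beside the results.

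The Acp5 ratio, the log2 of treated over contra lateral signal after normalization, varied in both directions. In LOAD it was 0.14, 0.52, -0.06, -0.57 and -1.11 in rats 1 to 5. In SHAM it was 0.26, 0.46, -0.16, 0.86 and -0.35. Thus 3 of 5 LOAD rats and 2 of 5 SHAM rats had less Acp5 signal in the treated tibia, and the groups overlapped over most of their range. The mean was -0.21 ± 0.64 (SD, n = 5) in LOAD, a 0.863-fold ratio, and 0.21 ± 0.48 (SD, n = 5) in SHAM, a 1.16-fold ratio. From the fit over all genes the 95% confidence interval was -0.69 to 0.26 in LOAD and -0.26 to 0.69 in SHAM. Both means moved with single rats. The LOAD mean was 0.01 without LOAD 5, -0.12 without LOAD 4 and -0.40 without LOAD 2, and the SHAM mean was 0.05 without SHAM 4 and 0.35 without SHAM 5.

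The Slc4a2 ratio was small and lay below 0 in every loaded rat as the dyes are labelled. It was -0.01, -0.16, -0.11, -0.29 and -0.31 in LOAD rats 1 to 5. In SHAM it was -0.10, 0.13, 0.13, 0.16 and 0.06 in rats 1 to 5. So 5 of 5 LOAD rats and 1 of 5 SHAM rats had the lower signal in the treated tibia. A ratio below 0 in all 5 LOAD rats occurred in 81 of the 4472 genes measured on all 10 arrays, 1.81%. With the dyes of LOAD 2 exchanged its Slc4a2 ratio was 0.16, so that 4 of 5 LOAD rats were below 0 and Slc4a2 was not among the genes, then 117 or 2.62%, that were below 0 in all 5. The mean was -0.18 ± 0.12 (SD, n = 5) in LOAD, a 0.886-fold ratio with an interval of -0.33 to -0.02, and 0.08 ± 0.10 (SD, n = 5) in SHAM, with an interval of -0.08 to 0.23.

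**Figure D1:**
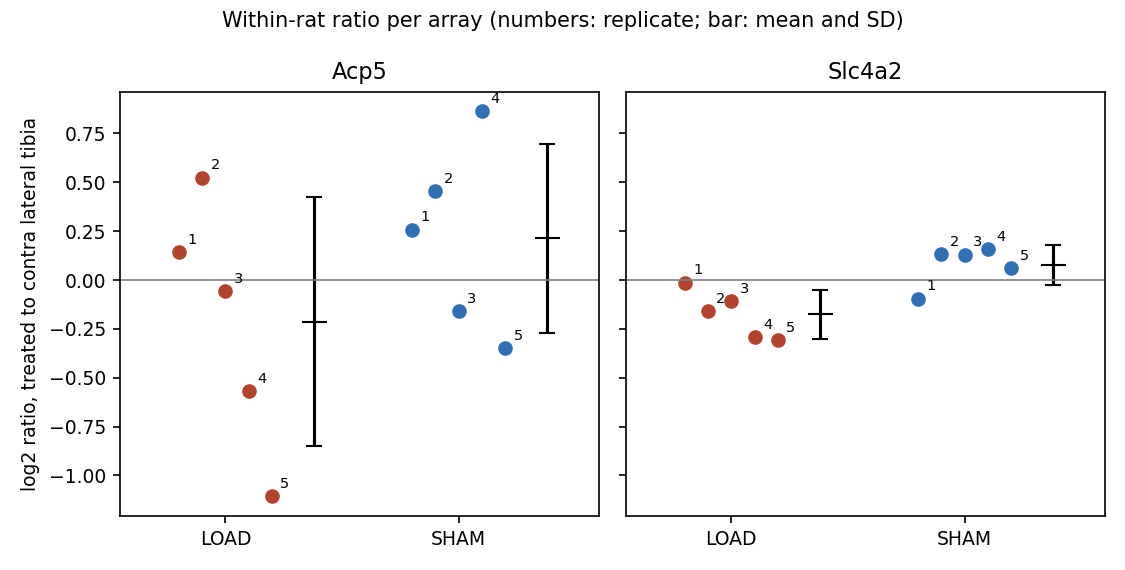
The log2 ratio of treated to contra lateral tibia (y axis, 0 means equal signal) is plotted for Acp5 (left) and Slc4a2 (right) on each of 5 LOAD and 5 SHAM arrays, with the replicate number beside each point and the group mean and SD as a black bar. Acp5 spread from -1.11 to 0.86 with both groups on both sides of 0, whereas Slc4a2 stayed between -0.31 and 0.16 with the 5 LOAD points below 0 in the labelled dye direction.

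Subtracting SHAM from LOAD, which takes the squeezing out, gave a negative difference for both genes. It was -0.43 (standard error 0.31, interval -1.10 to 0.24) for Acp5 and -0.25 (standard error 0.10, interval -0.47 to -0.03) for Slc4a2. Slc4a2 had been named for this difference in an earlier account of these data. Its intervals, here and in LOAD, are therefore descriptions and not tests. Of the 25 pairs of a LOAD and a SHAM rat, the LOAD ratio was the lower in 17 for Acp5 and in 24 for Slc4a2, and with the dyes of LOAD 2 exchanged in 21 and in 20. As labelled, the exception for Slc4a2 was LOAD 1 at -0.01 against SHAM 1 at -0.10, so the groups overlapped by that pair. Ratios of LOAD and SHAM that did not overlap at all were found in 7 of 4472 genes, 0.157%, and neither Acp5 nor Slc4a2 was among them. Without LOAD 5 the Acp5 difference was -0.20, without SHAM 4 it was -0.26 and without LOAD 2 it was -0.61. The Slc4a2 difference lay between -0.30 and -0.22 when any 1 rat was left out. With the dyes of LOAD 2 exchanged the differences were -0.64 for Acp5 and -0.19 for Slc4a2, and with SHAM 1 counted as LOAD they were -0.34 and -0.28. Without normalization the mean ratios of SHAM were below 0 for both genes, at -0.22 and -0.36, where the median of all genes was -0.42.

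Neither gene passed the test across all genes. With limma and Benjamini-Hochberg adjustment at a 20% rate of false discoveries, 0 of 4707 genes passed in LOAD (0%), 0 in SHAM (0%) and 0 in the difference between LOAD and SHAM (0%). Unadjusted p was under 0.05 in 157, 32 and 70 genes. The adjusted p of both genes was 1.00 in each contrast.

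Scan batches are not named in the labels, and were inferred from a number in the image names of the file headers, read as a day. Within these batches the difference between LOAD and SHAM was negative in 4 of 4 for Slc4a2 and in 3 of 4 for Acp5 as the dyes are labelled. In batch 1, with rats 1 and 2 of both groups, it was -0.02 for Acp5 and -0.10 for Slc4a2, but -0.55 and 0.05 with the dyes of LOAD 2 exchanged, so that the sign for Slc4a2 in this batch depended on that array. Batches 2, 3 and 4 held 1 rat of each group, with differences of 0.10, -1.43 and -0.76 for Acp5 and -0.24, -0.45 and -0.37 for Slc4a2. The treated tibia was labelled with Cy3 in 3 rats and with Cy5 in 2 rats of each group. With Cy3 on the treated tibia the Acp5 means were -0.16 in LOAD and -0.08 in SHAM, and with Cy5 they were -0.29 and 0.66. The Slc4a2 means were -0.14 and 0.03 with Cy3 and -0.23 and 0.15 with Cy5, so that LOAD was below SHAM under both orientations.

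The level of each gene in each of the 20 tibiae was taken from the single channels, on a normalized log2 intensity scale that allows 1 gene to be compared across tibiae but not 1 gene with another. For Acp5 the loaded tibiae of rats 1 to 5 measured 9.45, 9.31, 8.48, 8.92 and 8.46, and their contra lateral controls 9.31, 8.79, 8.53, 9.49 and 9.57. In SHAM the squeezed tibiae measured 9.78, 9.22, 8.79, 9.36 and 9.31, and the controls 9.52, 8.76, 8.95, 8.50 and 9.65. All 4 groups overlapped, and the lowest tibia (loaded, LOAD 5) and the highest (squeezed, SHAM 1) were 2.48-fold apart. In order of their means the groups were SHAM treated at 9.29 ± 0.35, LOAD contra lateral at 9.14 ± 0.45, SHAM contra lateral at 9.08 ± 0.49 and LOAD treated at 8.92 ± 0.46 (SD, n = 5 each). Each step to the next group, at most 0.15, was smaller than the spread between rats in any of the groups, which leaves out the pairing of tibiae.

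Like the median gene (SD of 0.31 for rat means and 0.23 for ratios), Slc4a2 varied more between rats than between the tibiae of a rat. Its loaded tibiae measured 8.49, 8.96, 8.53, 8.38 and 8.57 in rats 1 to 5 and their controls 8.50, 9.12, 8.64, 8.67 and 8.88. The squeezed tibiae measured 8.55, 8.34, 8.36, 8.67 and 9.29 and their controls 8.65, 8.21, 8.23, 8.51 and 9.23. Both tibiae of SHAM 5 lay above all others, and the control tibia of SHAM 2 was the lowest, 2.11-fold below the highest. The means were 8.76 ± 0.24 in LOAD contra lateral, 8.64 ± 0.39 in SHAM treated, 8.59 ± 0.22 in LOAD treated and 8.56 ± 0.42 in SHAM contra lateral tibiae (SD, n = 5 each). Steps between neighbours in this order were at most 0.12 and lay within the spread of each group. That spread is between rats and leaves out the pairing of tibiae, which the ratios above take in.

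**Figure D2:**
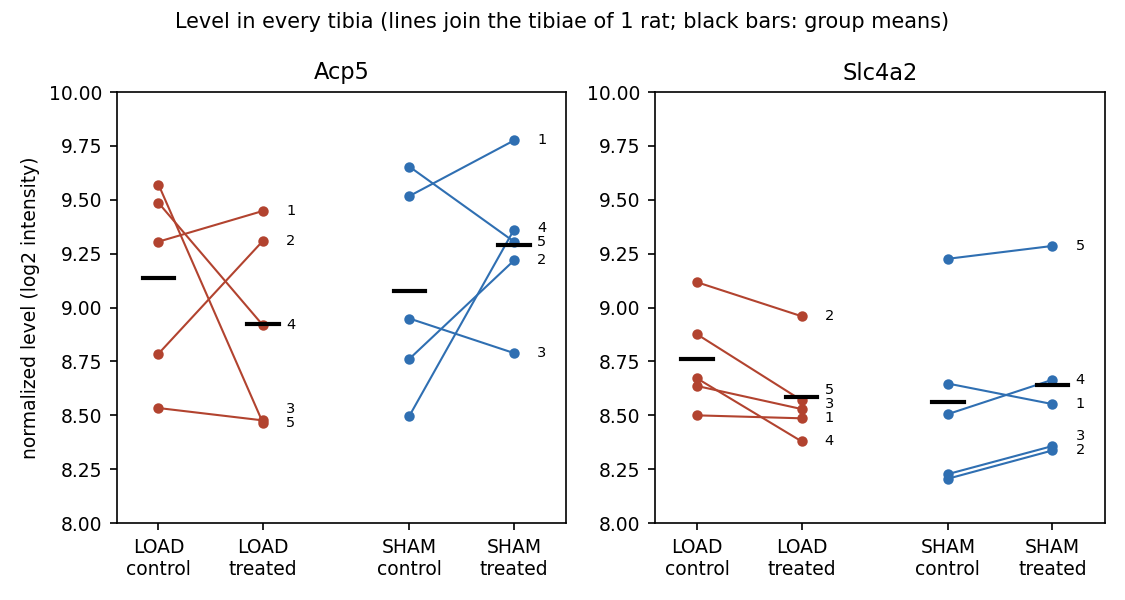
The normalized log2 level (y axis, from 8 to 10) of Acp5 (left) and Slc4a2 (right) is plotted for every tibia of LOAD and SHAM, where lines join the contra lateral control and the treated tibia of a rat, numbers give the replicate and black bars the group means. The lines of Acp5 cross, with LOAD 5 falling from 9.57 to 8.46 and SHAM 4 rising from 8.50 to 9.36, whereas those of Slc4a2 run nearly level and differ in height between rats.

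The difference in pattern can be read from the tibiae of the same rat. Over 10 rats the treated and the contra lateral level correlated at r = 0.86 (rho = 0.79) for Slc4a2 and at r = 0.13 (rho = -0.02) for Acp5. Without the 2 rats farthest from the median of the control level, r was 0.59 for Slc4a2 (without LOAD 2 and SHAM 5) and -0.03 for Acp5 (without LOAD 3 and SHAM 4). Paired tibiae share an array and a spot as well as a rat, and the part of each in these correlations was not tested. The SD of the ratio over the 10 arrays was 0.58 for Acp5 and 0.17 for Slc4a2, where the median gene had 0.23. In order of that SD, from the most variable, Acp5 was number 208 and Slc4a2 number 3417 of 4472 genes. The mean of both tibiae varied between rats to about the same degree, with an SD of 0.33 for Acp5 and 0.31 for Slc4a2, near the median gene at 0.31.

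Contra lateral tibiae of the LOAD and SHAM groups were compared to see whether the controls themselves differed. The level in LOAD controls minus that in SHAM controls was 0.06 (standard error 0.36, interval -0.68 to 0.80) for Acp5 and 0.20 (standard error 0.18, interval -0.17 to 0.57) for Slc4a2. Leaving out 1 rat moved it from -0.08 (without SHAM 4) to 0.21 (without LOAD 3) for Acp5, a change of sign. For Slc4a2 it ranged from 0.11 (without LOAD 2, SHAM 2 or SHAM 3) to 0.36 (without SHAM 5). In limma's single channel analysis with Benjamini-Hochberg adjustment 0 of 4472 genes (0%) were past the 20% rate, with 234 at an unadjusted p under 0.05, and without LOAD 3 the count was 8. The interval for Acp5 spans from a 0.68 lower to a 0.80 higher log2 level, so a moderate difference between the controls was not detectable with 5 rats per group. For Slc4a2 the control difference of 0.20 and the ratio difference of -0.25 had opposite signs, which share the control channels of the same arrays, and the treated tibiae of both groups had means of 8.59 and 8.64.

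Acp5 and Slc4a2 varied together to a limited degree. Over the 20 tibiae their levels correlated at r = 0.35 (rho = 0.39), at 0.35 without the loaded tibiae of LOAD 3 and LOAD 5, and at 0.21 without both tibiae of SHAM 5. Tibiae of the same rat share an array and are not independent. The 10 within-rat ratios correlated at r = 0.63 (rho = 0.55), but at 0.23 (rho = 0.12) without LOAD 5 and SHAM 4, so that most of it rested on those rats. Rat means correlated at r = 0.32 (rho = 0.42), at 0.53 without SHAM 1 and LOAD 3, but at 0.066 without SHAM 5 alone. With the group means removed the ratios correlated at r = 0.56 (rho = 0.61). Both ratios were below 0 in 3 rats and above 0 in 2 rats, and they had opposite signs in the other 5.

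**Figure D3:**
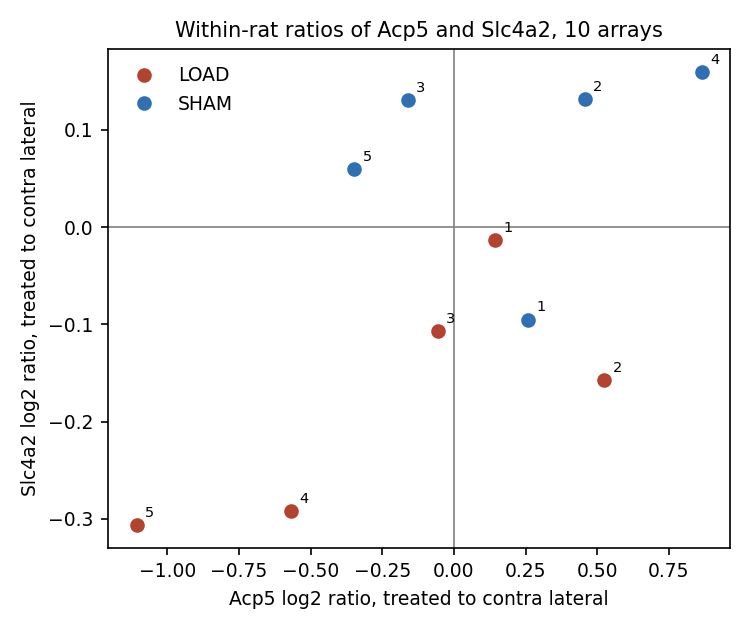
The log2 ratio of Slc4a2 (y axis) is plotted against that of Acp5 (x axis) for the 10 arrays, LOAD in red and SHAM in blue, with replicate numbers and lines at 0. LOAD 4 and LOAD 5 lie at the lower left and SHAM 4 at the upper right, while r without LOAD 5 and SHAM 4 was 0.23, and r over all 10 was 0.63.

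Other genes followed each of them more closely across the 20 tibiae. Among 658 named genes measured on all arrays and with signal in at least 18 of 20 channels, Slc4a2 was number 36 in order of correlation with Acp5, and Acp5 number 117 in that with Slc4a2. Among the genes most like Acp5 were Slc12a4 (a potassium chloride cotransporter, r = 0.71), Vch (r = 0.69), Sftpc (surfactant protein C, r = 0.66) and Gpx4 (a glutathione peroxidase, r = 0.55). In the within-rat ratios the r of these genes with Acp5 ran from 0.58 for Gpx4 to 0.86 for Vch. The genes most like Slc4a2 were Atp1b1 (a subunit of the sodium pump, r = 0.85), Hpn (the membrane protease hepsin, r = 0.81), Cyp2c7 (a cytochrome P450, r = 0.80), Hbp1 (a transcription factor, r = 0.76) and Cpa1 (a carboxypeptidase, r = 0.75). Their likeness lay in the rat means, at r from 0.79 for Cpa1 to 0.92 for Atp1b1, and less in the within-rat ratios, where r ran from -0.27 for Hpn to 0.64 for Cyp2c7. Rat means and ratios make up the levels by which the genes for Acp5 and Slc4a2 were picked, so neither is separate support. None of these genes is an osteoclast gene of the lists used here, and they were the highest of many correlations.

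Other genes of the osteoclast were represented sparsely. Of 21 genes of the resorption machinery, 5 were matched by name on the array, and all 5 had signal in 20 channels. Cathepsin K, matrix metalloproteinase 9, the calcitonin receptor and integrin beta 3 were not among the matched names, and neither was any of 20 subunits of the vacuolar proton pump. The presence of osteoclasts in the shafts could thus not be checked against their defining markers. The matched genes beside Acp5 and Slc4a2 were Car2, the cytosolic carbonic anhydrase that supplies the protons, Ctsl, a lysosomal cathepsin, and Ckb, the brain form of creatine kinase.

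These genes did not move as a group. Car2 had a ratio of 0.23 ± 1.03 in LOAD and -0.17 ± 0.27 in SHAM (SD, n = 5 each), the opposite order to Acp5 and Slc4a2. Ctsl had 0.10 ± 0.58 and 0.06 ± 0.22, and Ckb had -0.27 ± 0.35, below 0 in 5 of 5 LOAD rats, and 0.10 ± 0.42. LOAD minus SHAM was below 0 for 3 of the 5 genes, with a median of -0.25 where all 4707 genes had a median of -0.01, and 0 of 5 passed the 20% rate. With the dyes of LOAD 2 exchanged, 5 of 5 were below 0. Over the 10 arrays the ratio of Acp5 correlated at 0.64 with Ctsl, at 0.26 with Car2 and at 0.17 with Ckb, and that of Slc4a2 at 0.19, -0.22 and 0.39.

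Genes that govern the formation of osteoclasts were matched for 8 of 33, of which 7 were tested and 0 passed. LOAD minus SHAM was above 0 for 6 of 7, with a median of 0.18. Signal was, however, present in 20 channels only for Tnfrsf11b, Il6r and Ppp3ca. Tnfrsf11b, which encodes the decoy receptor osteoprotegerin that blocks osteoclast formation, had 0.21 ± 0.38 in LOAD and 0.12 ± 0.19 in SHAM (SD, n = 5 each), a difference of 0.09 (standard error 0.18). Il6r, the receptor of interleukin 6, differed by -0.14 (standard error 0.17), and Ppp3ca, a catalytic subunit of calcineurin, by 0.04 (standard error 0.14). The cytokine genes Tnf and Il18, with the highest differences of the list at 0.33 and 0.35, had signal in 0 and 1 of 20 channels, so their differences are of spots not above background. Il1a, the gene of interleukin 1 alpha, had signal in 15 channels and a difference of 0.19 (standard error 0.17).

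Among ion exchangers and channels, Slc4a2 stood beside 9 others on the array, and 0 of the 10 passed. Its paralog Slc4a1, the band 3 exchanger of red cells, had ratios of 0.20 ± 1.13 in LOAD and -0.10 ± 1.91 in SHAM, the widest spread of the list. Slc4a3, the exchanger AE3 of heart and brain, had -0.08 ± 0.33 and 0.03 ± 0.14 (SD, n = 5 each). LOAD minus SHAM was below 0 for 5 of the 10 genes, with a median of 0.01. Over the 10 arrays the ratio of Slc4a2 correlated at -0.34 with Slc4a1 and at 0.24 with Slc4a3. Of the other phosphatase and lysosome genes, Lamp1, a lysosomal membrane protein, had -0.08 ± 0.29 in LOAD and -0.10 ± 0.15 in SHAM. Acp2, the lysosomal acid phosphatase, had 0.06 ± 0.10 and 0.16 ± 0.24, and is named here though not among the 3 genes of highest level. The whole list of 7, Acp5 included, had a median difference of -0.01, with 3 genes above 0 and 4 below.

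**Figure D4:**
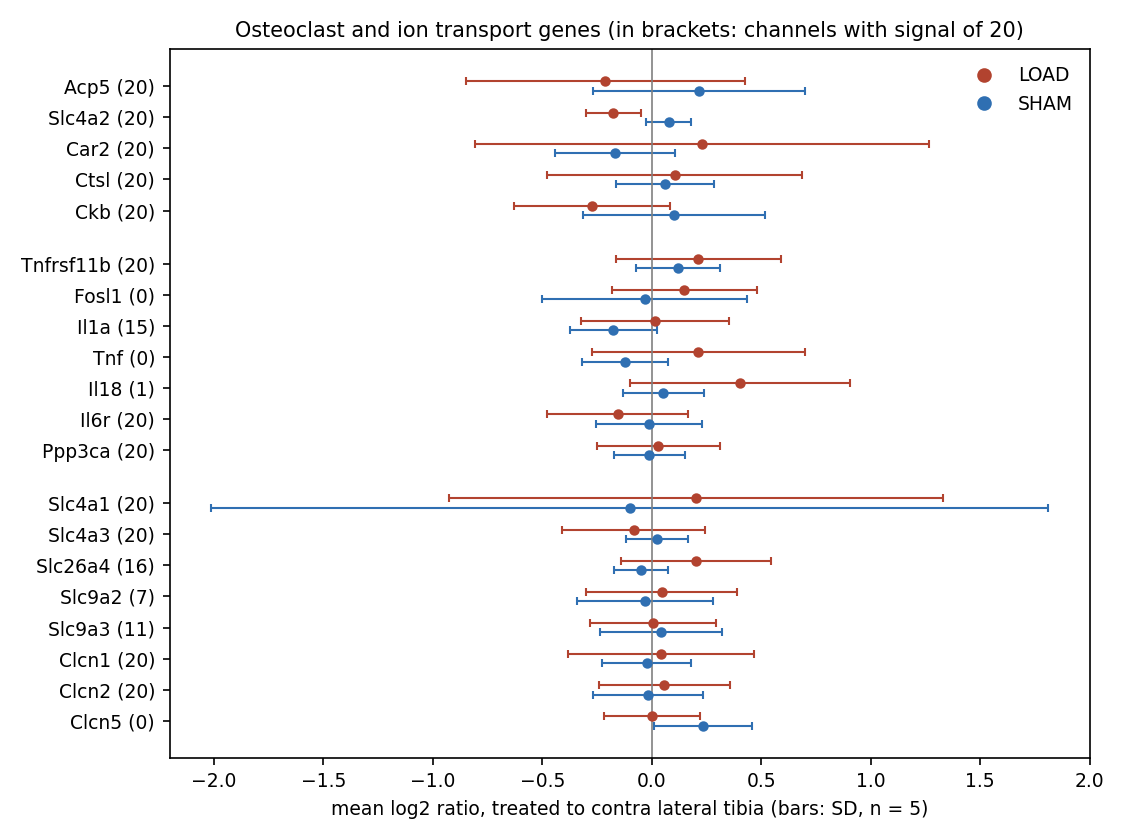
Mean log2 ratios of treated to contra lateral tibia (x axis, bars SD, n = 5) are plotted for LOAD in red and SHAM in blue, with the resorption machinery at the top, formation signals in the middle and a selection of ion transport genes at the bottom, and the number of 20 channels with signal in brackets. Slc4a2 has the shortest bars of the resorption genes, with -0.18 in LOAD and 0.08 in SHAM, and the bars of Slc4a1 are the longest.

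Markers of other cells were followed on the same arrays. Of the macrophage and monocyte list, which could share Acp5, 3 of 21 genes were matched. Cd53, a leukocyte membrane protein, had 0.29 ± 0.18 in LOAD and 0.08 ± 0.18 in SHAM, and Lyz2, the lysozyme of myeloid cells, 0.34 ± 1.10 and -0.03 ± 0.37 (SD, n = 5 each). LOAD minus SHAM was above 0 for 3 of 3, the direction opposite to Acp5. Over the 10 arrays, however, the median ratio of the list correlated at r = 0.42 with that of Acp5, and 2 of the 3 genes were positive, Aif1 (a macrophage calcium-binding protein) at 0.52 and Lyz2 at 0.34, with Cd53 at -0.09. With Slc4a2 the list median correlated at -0.31. The part of macrophage RNA in the Acp5 ratio was not tested. Bone genes were present, with signal in 20 of 20 channels for Sparc, Spp1 and Ibsp, matrix proteins made by osteoblasts. The difference between LOAD and SHAM was below 0 for 5 of 9 genes of the osteoblast list, with a median of -0.12.

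Of all lists followed, skeletal muscle and cartilage had the median ratios that correlated most highly with Slc4a2, and skeletal muscle had the highest with Acp5 as well. Of the cartilage list 3 of 9 genes were matched (Col2a1, Comp and Chad), with signal in 16, 11 and 2 channels. LOAD minus SHAM was below 0 for 3 of 3, with a median of -0.27, and the median ratio of the list correlated at r = 0.49 with Slc4a2 and at 0.38 with Acp5. LOAD minus SHAM was below 0 for 2458 of all 4707 genes. Of 13 skeletal muscle genes on the array, it was below 0 for 12, with a median of -0.29, and 0 of 13 passed the 20% rate. Their median ratio was -0.01, -0.09, -0.62, -0.81 and -0.39 in LOAD rats 1 to 5 and -0.05, 0.49, 0.07, 0.02 and -0.12 in SHAM rats 1 to 5. Over the 10 arrays this median correlated at r = 0.76 (rho = 0.82) with the Slc4a2 ratio and at 0.59 (rho = 0.60) with that of Acp5, and without LOAD 4 and SHAM 2 r was 0.62 and 0.48. With the group means removed r was 0.53 for Slc4a2 and 0.48 for Acp5. Of the 12 muscle genes measured on all 10 arrays, 10 correlated positively with Slc4a2, with a median r of 0.46, where the median over 4471 genes was 0.03 and 53.4% were positive. The quantiles of r over those 4471 genes were -0.51 at 5% and 0.56 at 95%. They describe single genes, so they give no range for a median over 12 genes. The correlation was 0.63 for Tnni2 (fast troponin I), 0.49 for Car3 (the carbonic anhydrase of muscle) and 0.35 for Scn4a (the muscle sodium channel), the muscle genes with the strongest spot signal. It was 0.83 for Ckm, the muscle creatine kinase, named here after its values were seen. The mean level of these 12 genes ranged from 8.77 to 9.22 in loaded tibiae, from 8.85 to 10.2 in their controls, from 8.80 to 9.56 in squeezed tibiae and from 8.88 to 9.24 in theirs. Signal was present in at least 18 channels for 9 of the 13 and in no channel for Mstn. With Acp5, 10 of the 12 muscle genes also correlated positively, at a median r of 0.27 against 0.01 over all genes. The part of muscle or cartilage RNA in the Slc4a2 and Acp5 ratios was not tested.

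**Figure D5:**
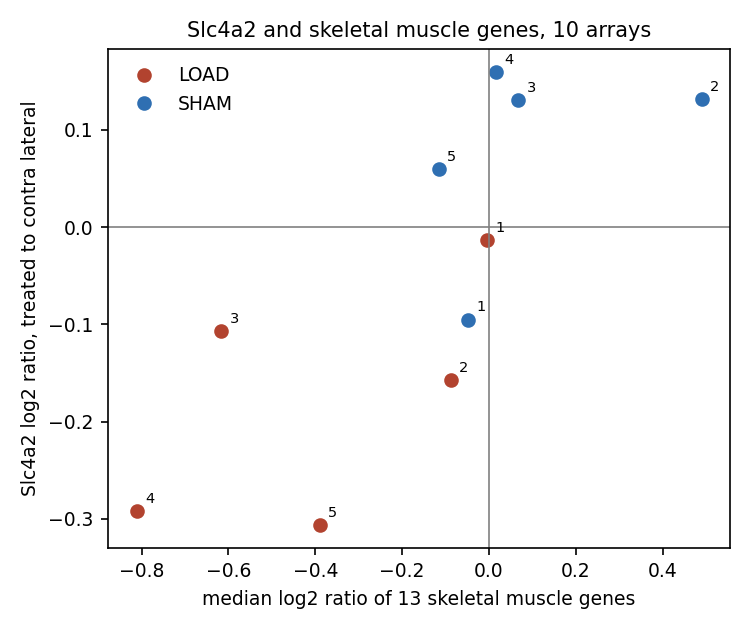
The Slc4a2 log2 ratio (y axis) is plotted against the median log2 ratio of 13 skeletal muscle genes (x axis) for 10 arrays, LOAD in red and SHAM in blue, with replicate numbers. LOAD 4 and LOAD 5, with muscle medians of -0.81 and -0.39, had the lowest Slc4a2 ratios, and r over the arrays was 0.76. LOAD 3, with a muscle median of -0.62, had a Slc4a2 ratio of -0.11.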

How the data were processed

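Tibial RNA of 10 rats was measured on 10 arrays. The deposited data used here give a single intensity per accession and channel, without separate values for duplicate spots. The paper states that its own analysis did not average duplicates and modelled each spot, which the fits here did not do. Intensities had been read from the array images with BlueFuse (2.0 in the file headers). The deposited intensity of each channel was not normalized, and the deposited signal probability and confidence are fractions written by that software. The deposited matrix of log2 ratios equals the log2 ratios of the deposited intensities, treated over control, within 0.003 and was not used further.

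Groups and dyes came from the labels. Spots below a confidence of 0.11 were discarded, loess was applied to the log2 ratios of each array (span 0.3, 4 iterations), and ratios were turned to treated over contra lateral. A gene could miss 1 of 10 values at most, which leaves 4707 of 4803. Means for LOAD and SHAM were fitted per gene with limma 3.58.1 (R 4.3.3), using its moderated statistics, and p-values were adjusted after Benjamini-Hochberg, with 20% as threshold. Levels per tibia are Aquantile-normalized single channels of the 4472 genes measured on all arrays, and the contra lateral controls were compared with an intraspot correlation of 0.74. Replicates are separate rats, and precision is limited by their number. The fits were tested on simulated data.

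Names came from RefSeq (1177 accessions) and the paper (7), and 3619 accessions have no name here. The genes Acp5 and Slc4a2 and the 13 gene lists were chosen with earlier results of these data known. The named genes are these 2, the matched genes of the resorption, formation, proton pump and ion transport lists, of every other list the 3 genes with the highest mean level, and the 5 genes most correlated with each over the 20 tibiae, with any other named as such. The alternatives changed the normalization, filters, offset, dye, scan and replicate terms, the direction of LOAD 2, the group of SHAM 1 and the arrays included. A few genes that fall under this rule are not reported here. RT-PCR and staining were not analysed here.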

Additional observations from a re-analysis of the deposited data

How the results depend on the processing

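Over 27 values and counts and 511 recomputations, 498 stayed within the spread between rats or within 1.5 times the count and 13 did not. That spread is mostly the SD of single rats, so changes of sign fell within it. They occurred for Acp5 in LOAD (0.01 without LOAD 5) and in SHAM (-0.22 without normalization). Some recomputations could not move, such as a LOAD mean with a SHAM rat left out. The count of 498 is thus no measure of stability. Without normalization the Slc4a2 ratio was -0.44 in LOAD and -0.36 in SHAM, with a difference of -0.086, while the median of all genes moved to -0.23, -0.42 and 0.19. Relative to that median Slc4a2 was at -0.21, 0.06 and -0.28 and Acp5 at -0.24, 0.20 and -0.45. The same setting called 9 genes in LOAD and 2 in LOAD minus SHAM, against 0.

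Of the osteoclast formation genes, 2 in place of 1 had a negative difference with median centring in place of loess and with the dyes of LOAD 2 exchanged, and with the latter 5 in place of 3 of the resorption genes did.

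Leaving out 1 rat at a time gave ranges of -0.40 to 0.01 (LOAD), 0.05 to 0.35 (SHAM) and -0.61 to -0.20 (difference) for Acp5, and of -0.22 to -0.14, 0.06 to 0.12 and -0.30 to -0.22 for Slc4a2. The count of negative formation genes ranged from 1 to 2, the calls between contra lateral controls from 0 to 8, and the correlation of the ratios from 0.43 (without LOAD 5) to 0.75.

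Same-numbered rats did not deviate together over all genes (r from -0.41 to 0.07). They shared a scan batch, however, and some had opposite dye orientation, so these r cannot show whether the numbers mark pairs. With a replicate block the differences were -0.43 and -0.25, and 0 genes were called. Each number holds a LOAD and a SHAM rat, so that block could not move the differences.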
